A study of Mus musculus with 2 samples.

Results

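The 7 genes described here are those of the creatine and phosphocreatine system: the creatine kinases Ckm, Ckb, Ckmt1 and Ckmt2, the creatine-making enzymes Gatm and Gamt, and the creatine transporter Slc6a8. They were taken as the gene spots whose gene name in the array files is one of these symbols, which gave 9 probes of 60 bases, 1 spot each. Of these, 8 probes for 6 genes passed the filter on dim probes, among 23419 genes tested in all. The values are from dissected mouse ureters at stage E18.5 (NMRI strain), the muscular tubes that carry urine from kidney to bladder, measured on 2 Agilent 2-colour arrays that each held RNA of both genotypes. RNA labelled cDKO came from embryos that were Tbx18(cre/+), with Cre in the locus of Tbx18, which is active in ureteric mesenchyme, and that were also homozygous for floxed alleles of the T-box factor genes Tbx2 (fl/fl) and Tbx3 (fl/fl). Control RNA came from embryos without Cre (Tbx18(+/+)) that carried at least 1 floxed allele of Tbx2 and of Tbx3 (fl/? at each). Replicate 1 was male RNA with the cDKO sample in AlexaFluor647 (red), and replicate 2 was female RNA with the dyes exchanged, so that sex, dye orientation and replicate cannot be told apart. Cre is driven from the Tbx18 locus and acts in cells that express or descend from cells that expressed it, and a cDKO embryo also has 1 Tbx18 allele fewer than a control. How many embryos each RNA was made from is not given in the labels. The p-values rest on the spread between these arrays, largely as shared across probes, and measure no spread beyond them.

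Creatine kinases move a phosphate group between ATP and creatine. Phosphocreatine is thereby a store of high-energy phosphate that refills ATP near myosin heads and ion pumps, and it is used most in muscle and brain. Cytosolic enzymes are built from the muscle subunit (Ckm) and the brain subunit (Ckb), of which the brain subunit is the one usually found in smooth muscle. Mitochondrial enzymes come from Ckmt1, found in many tissues including epithelia, and Ckmt2, known from heart and skeletal muscle. Creatine is made in successive steps by Gatm, an enzyme known from kidney, and Gamt, an enzyme known from liver, and is taken up into cells by Slc6a8.

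In each channel, 72.1% to 81.6% of gene spots exceeded background clearly, and the number of arrays limits the precision. All 14 smooth muscle, all 14 urothelium and all 10 ureteric mesenchyme markers were well above background in each of the 4 RNAs. So were all 12 liver markers, so detection above background does not by itself identify the tissue. Signals of both floxed genes were higher in the samples labelled cDKO, not lower (mean log2 ratio of 0.74 for Tbx2 and 0.66 for Tbx3). A probe outside the deleted exons does not check the genotype. Which exons the floxed alleles lose is not given in the labels, and the exon position of these probes was not determined. Directions below are those of the RNA labelled cDKO. The female RNA labelled cDKO stood apart in transcripts that its label does not predict. Processed signals of Ddx3y and Eif2s3y, which lie on the Y chromosome, were 359.6 and 491.2 there, which was 12.6% and 9.52% of the male cDKO signals, and were not well above background in the female control. The 12 liver markers summed to a normalized intensity of 305830 in that RNA and to 53987 to 68818 in the other 3. For every gene below, the male array gives the value without that RNA.

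The cytosolic creatine kinases were lower in the RNA labelled cDKO and the other measured creatine genes did not pass the test. Ckm was 14.2-fold lower and Ckb 3.72-fold lower, while the mitochondrial kinase Ckmt1, both synthesis enzymes and the transporter lay within 7% of control on average. In all, 2 of 6 measured genes were called lower and 0 higher (limma, adjusted p under 0.05), against a background of 2.27% of all tested genes called lower and 2.18% called higher, or 4.45% in either direction. At an unadjusted p under 0.05 the counts were also 2 and 0, while 3751 of all 23419 genes passed that threshold in either direction (limma). The unadjusted counts of the lists below stand beside that same background. A fall of at least 2-fold on both arrays was found for the same 2 genes, and for 0.726% of all genes, while a rise of that size was found for 0 of the 6 and for 0.410% of all genes. The median log2 ratio of the 6 genes was -0.096, beside 0.0045 for all genes.

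**Figure D1:**
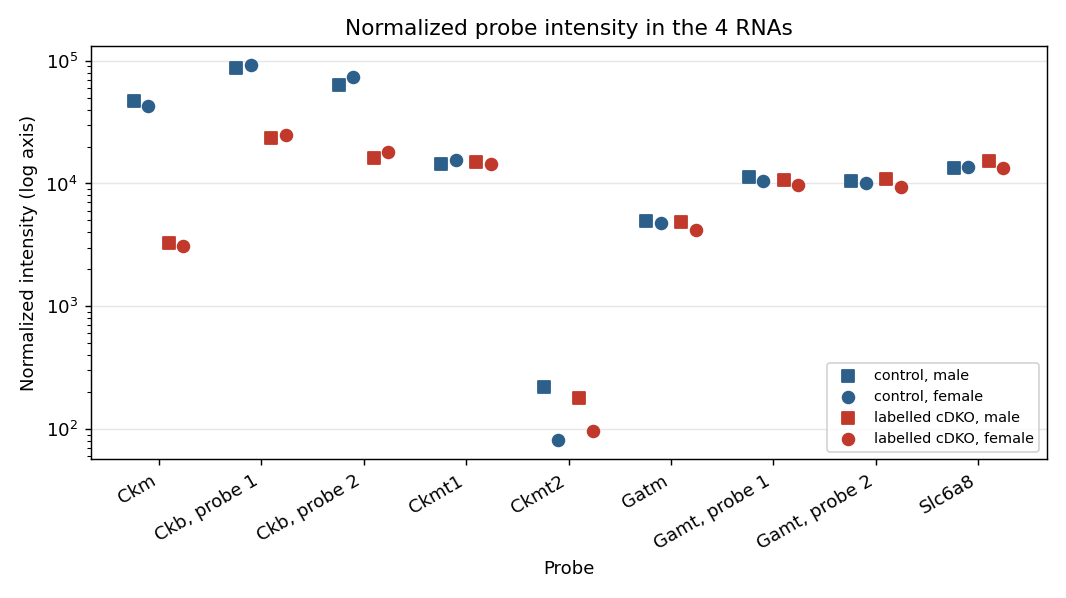
Normalized intensity (log axis) of the 9 probes in the 4 RNAs, with squares for male and circles for female RNA, blue for control and red for labelled cDKO; each symbol is 1 RNA. Ckm and both Ckb probes are lower in both cDKO RNAs than in both controls, Ckmt2 is near background, and the other probes overlap; brightness is not comparable between probes.

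Ckm, the muscle subunit that binds the M-band of striated muscle as well as working in the cytosol, changed most. Its normalized intensity (after background correction and loess, on a linear scale) was 47399 in the male control and 42965 in the female control, and 3265 and 3076 in the male and female RNA labelled cDKO. Both controls lay far above both cDKO values, and the genotypes did not overlap. Intensities were not scaled between the arrays, so overlap, here and for the genes below, is a description only. The tests use the ratio within each array. The share of all genes without overlap was not determined. What remained was 6.89% of the male control and 7.16% of the female control. The mean log2 ratio was -3.83 ± 0.040 (SD, n = 2; limma adjusted p = 1.61e-09), or 14.2-fold lower with a 95% interval of 11.2 to 18.1. Ckm ranked 6th from the lowest of 23419 genes. The transcript was well above background in all 4 RNAs, at 57.5 to 76.3 times the local background in the cDKO RNAs.

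Ckb, the brain subunit, was measured by a pair of probes at different places in the transcript. At the brighter probe the intensities were 87390 and 92755 in the male and female controls and 23627 and 24761 in the RNA labelled cDKO. The other probe had 63966 and 73321 in the controls and 16220 and 18055 in the cDKO RNAs. At neither probe did the genotypes overlap. The brighter probe gave a mean log2 ratio of -1.90 ± 0.013 (SD, n = 2; limma adjusted p = 1.91e-06), which is 3.72-fold lower with a 95% interval of 2.93 to 4.73. The other gave -1.98 for male and -2.02 for female RNA, with a 95% interval of 3.15- to 5.09-fold lower (limma adjusted p = 1.11e-06), so the intervals of both probes overlapped. Ckb ranked 75th from the lowest. On each array the log2 ratio of Ckm was below that of Ckb. The difference, Ckm minus Ckb, was -1.97 for the male and -1.90 for the female array and has no test here.

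The probes of these kinases are shown because Ckm and Ckb are close relatives and one of the Ckb probes lies over the matching stretch of the Ckm probe. Capitals mark bases at which the aligned pair differs, each sequence is 5′ to 3′ and in the sense of the transcript, and the third probe is shown for comparison.
Ckm probe: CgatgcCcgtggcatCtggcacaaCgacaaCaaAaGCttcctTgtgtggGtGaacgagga
Ckb probe, matching stretch: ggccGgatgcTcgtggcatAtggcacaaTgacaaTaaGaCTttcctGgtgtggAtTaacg
Ckb probe, other stretch: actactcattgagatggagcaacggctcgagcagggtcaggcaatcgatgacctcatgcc
Over an overlap of 56 bases the first pair matched at 45, an identity of 80.4%, with 11 differing bases and a longest shared run of 8 bases. No other probe on the array shared a run of 20 bases or more with any of these probes. On mm9, the build of the array files, the Ckm probe lies on chromosome 7, 20002222 to 20004829 (plus strand), the matching Ckb probe on chromosome 12, 112908459 to 112909105 (minus strand), and the other Ckb probe at 112907787 to 112907846 there. The former pair spans 2608 and 647 genomic bases with 60 bases of sequence, as a probe across a splice junction does. The Ckb probe without that similarity to Ckm was at 25.4% and 24.6% of control on the male and female arrays, beside 27.0% and 26.7% for the probe that has it. How much of the remaining signal at the Ckm probe came from Ckb transcript was not tested.

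**Figure D2:**
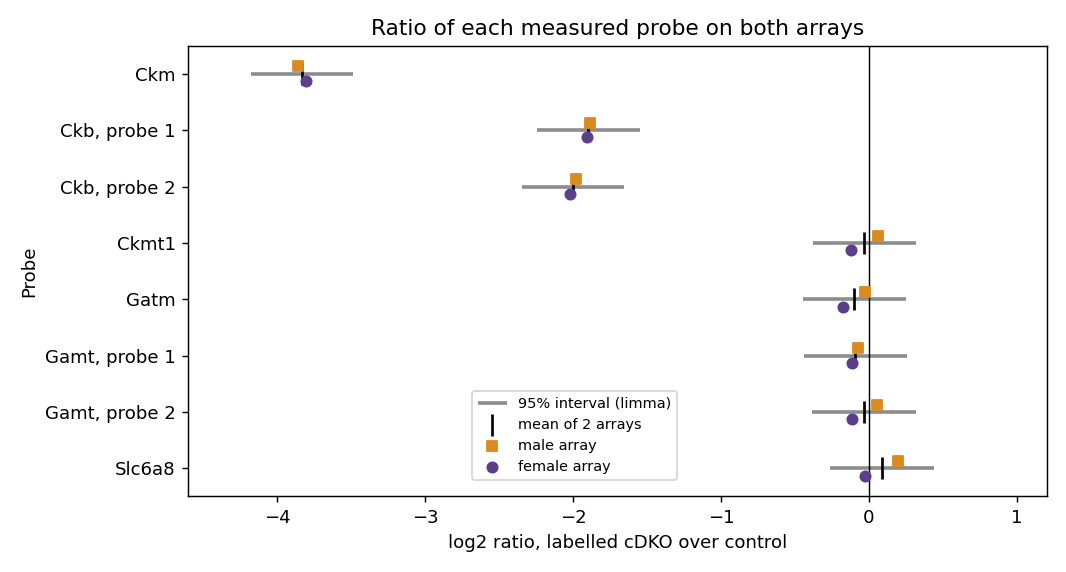
Log2 ratio of labelled cDKO over control for the 8 measured probes, with squares for the male array, circles for the female array, black bars for the mean of both arrays and grey lines for limma's 95% interval. Ckm lies at -3.83 and the Ckb probes between -2.02 and -1.89 with the arrays close together, and the intervals of the other probes all include 0.

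Of the mitochondrial creatine kinases, Ckmt1 did not pass the test and Ckmt2 was too dim for one. Ckmt1 had intensities of 14452 and 15671 in the male and female controls and of 15057 and 14423 in the RNA labelled cDKO. The genotypes overlapped, with the cDKO value higher on the male and lower on the female array. Its mean log2 ratio was -0.030 ± 0.13 (SD, n = 2; limma adjusted p = 0.966), and the interval of its level runs from 0.768 to 1.25 times control. Ckmt2, the sarcomeric mitochondrial form, was well above background in 1 of the 4 RNAs, the male control, at 2.74 times the local background. The other RNAs stood at 1.27 to 1.78 times background, so no ratio is given for it and a change could not be detected at this signal. The Ckmt1 probe lies on chromosome 2, 121189414 to 121189473, and the Ckmt2 probe on chromosome 13, 91993242 to 91995390 (mm9).

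Of the genes that make creatine, Gatm transfers the amidino group of arginine to glycine. Its intensities were 4909 and 4727 in the male and female controls and 4830 and 4184 in the cDKO RNAs. Each cDKO value was below the control of its own array, but the male cDKO value exceeded the female control, so the genotypes overlapped. The log2 ratio of -0.100 ± 0.11 (SD, n = 2) did not pass (limma adjusted p = 0.871), with an interval of 0.733 to 1.19 times control. Gamt, which methylates guanidinoacetate to creatine, had 11228 and 10529 in the controls and 10692 and 9740 in the cDKO RNAs at its brighter probe. The ratio there was -0.092 ± 0.030 (SD, n = 2; limma adjusted p = 0.885), with an interval of 0.738 to 1.19 times control. The second Gamt probe shares 54 of its bases with the first, so it is no independent reading. It gave 0.052 for male and -0.12 for female RNA. The Gatm probe lies on chromosome 2, 122420814 to 122420873, and the Gamt probes on chromosome 10, 79720897 to 79720962 (mm9).

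Slc6a8, the carrier that brings creatine into cells with sodium and chloride, had intensities of 13283 and 13538 in the male and female controls and of 15252 and 13298 in the cDKO RNAs. The genotypes overlapped. Its log2 ratio was 0.087 ± 0.16 (SD, n = 2; limma adjusted p = 0.895), with an interval of 0.832 to 1.36 times control. Its probe lies on chromosome X, 70927775 to 70927834 (mm9). The intervals of Ckmt1, Gatm, Gamt and Slc6a8 had lower ends between -0.45 and -0.27 log2 units and did not reach the interval of Ckb, which ran from -2.24 to -1.55. A p above the threshold does not show that these genes were unaltered: changes within those intervals could not be told from none.

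The fall of Ckm and Ckb stood beside a fall of muscle genes. Of 14 smooth muscle markers 13 were called lower and 0 higher (14 and 0 at an unadjusted p under 0.05 by limma), with a median log2 ratio of -2.21. Summed over the list, the normalized intensity was 1797827 to 2209793 in controls and 359538 to 469934 in the RNA labelled cDKO. Acta2, the smooth muscle actin, was at -2.65 ± 0.23 (SD, n = 2), Tagln, transgelin, at -2.75 ± 0.037 and Tpm1, a tropomyosin, at -1.03 ± 0.34. Of the 14 markers, 5 had a higher log2 ratio than Ckb, 7 lay between Ckb and Ckm, and 2 were lower than Ckm. In whole ureters, fewer smooth muscle cells and less transcript in each cannot be told apart. The direction of these muscle lists was known from earlier results of the same arrays and is no separate evidence.

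Markers of other muscle types were examined because Ckm is best known from heart and skeletal muscle. Of 12 cardiac markers 5 were called lower and 0 higher (9 and 0 at an unadjusted p under 0.05 by limma), and the summed intensity was 403717 to 406177 in controls against 59870 to 60963. Among the brightest, Actc1, the cardiac actin, was at -2.55, Tnnt2, a troponin, at -3.29 and Myl4, a myosin light chain, at -2.92. Actc1 made up 236166 of the sum in the male control and 223587 in the female control. The fall did not run through the whole list. Hand2, Tbx5 and Nkx2-5, named after their values were seen, were at 0.16, 0.073 and 0.017 and did not pass the test. Of 15 skeletal muscle markers 11 were measured. Of these 4 were called lower and 0 higher (4 and 2 at an unadjusted p under 0.05 by limma). The sums were 69224 to 70624 in controls against 32672 to 35030. The myogenic factors Myog, Myf5 and Pax7 and the adult myosin Myh1 did not pass the filter on dim probes. The myogenic factors Myod1 and Myf6 were measured, at 0.011 and 0.21, and did not pass the test. The skeletal actin Acta1 was at -2.65, Tnni2 at -0.30 and Actn3 at 0.46, the latter pair not past the test. Under median centring, and likewise from the processed signals, 2 of the 11 were called lower.

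**Figure D3:**
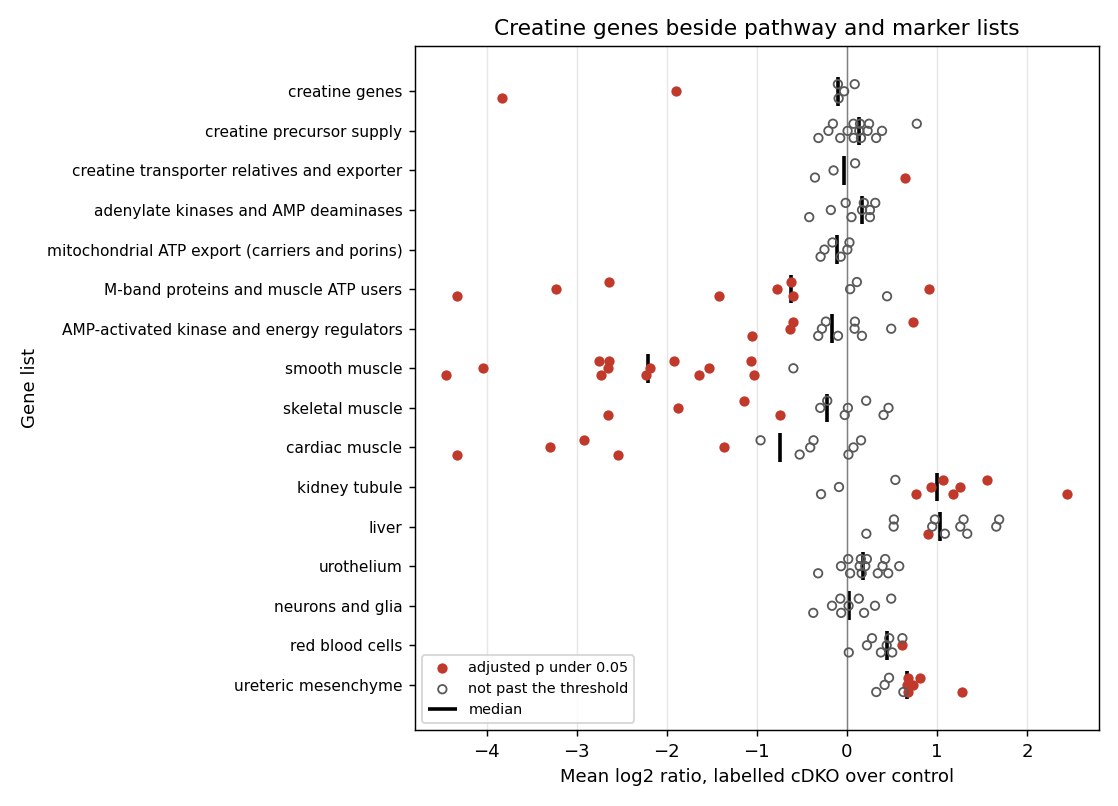
Mean log2 ratio of labelled cDKO over control for each measured gene of the creatine set and of the pathway and marker lists; each circle is 1 gene, filled where its adjusted p is under 0.05, and black bars are medians. Smooth muscle lies lowest with a median of -2.21, Ckm and Ckb lie far left of the other creatine genes, and the lists of creatine precursors, adenylate kinases and mitochondrial ATP export hold no filled circle.

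Many genes that work with the kinases at sites of ATP use were lower. In the list of M-band proteins and muscle ATP users 7 of 11 genes were called lower, beside 2.27% of all genes, with a median of -0.62. Myom1, a myomesin of the M-band to which muscle creatine kinase binds, was 9.37-fold lower (log2 -3.23 ± 0.10, SD, n = 2). The heart myosin Myh6 was 20.1-fold lower (log2 -4.33) at its brightest probe, but at -2.79 log2 with the mean of its probes. Myh11, the smooth muscle myosin, was at -2.64 ± 0.075. Myh6 and Myh11 are also on the marker lists above. Under median centring, and likewise from the processed signals, 4 genes of this list were called lower.

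Other routes of high-energy phosphate showed no call. Adenylate kinases and AMP deaminases, which balance ATP, ADP and AMP, had 0 of 9 measured genes called (1 lower and 0 higher at an unadjusted p under 0.05 by limma) and a median of 0.17. Ak4, a mitochondrial adenylate kinase, had the largest change at -0.42 ± 0.12 (SD, n = 2; limma adjusted p = 0.212). Carriers and porins that pass ATP out of mitochondria had 0 of 6 called (0 at an unadjusted p under 0.05 by limma), with a median of -0.11. Slc25a5, an ATP/ADP carrier, stood at -0.29 ± 0.096 (SD, n = 2; limma adjusted p = 0.433). Both lists thus lay near Ckmt1 and far from the cytosolic kinases in log2 ratio.

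Regulators of energy supply were mixed, with 3 of 12 called lower and 1 higher and a median of -0.17. Ppargc1a, a coactivator of mitochondrial genes, fell by 1.05 ± 0.17 log2 units (SD, n = 2; limma adjusted p = 0.00107), and Prkag3, a subunit of AMP-activated kinase, was at -0.63 ± 0.089. Esrrg, a nuclear receptor that works with that coactivator, was higher at 0.73 ± 0.059. With the processed signals the adjusted p was 0.0688 for Ppargc1a and 0.075 for Esrrg, and under median centring it was 0.301 for Ppargc1a, 0.726 for Esrrg and 0.707 for Prkag3. The last also missed the threshold without a filter (0.0547). The count called lower was 1 from the processed signals, 1 without a filter and 0 under median centring.

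The supply side of creatine, from its amino acid precursors to its transport family, had few calls. Of 15 genes for arginine, glycine and methyl group supply 0 were called (0 lower and 1 higher at an unadjusted p under 0.05 by limma), with a median of 0.14. Mat1a, which makes the methyl donor S-adenosylmethionine, had the largest mean at 0.78, made of -0.27 for male and 1.82 for female RNA (limma adjusted p = 0.234; 0.030 with an intensity trend). Bhmt, Arg1 and Gnmt, chosen after their values were seen, also were lower in cDKO on the male and higher on the female array, with 1.49, 1.22 and 0.56 on the latter. Oat, Shmt1, Mat2a and Mat2b had the same signs with smaller values on the female array (0.010, 0.036, 0.23 and 0.057). Asl had the reverse signs (0.077 for male and -0.23 for female RNA). Of the 15 genes, 5 were higher and 1 lower on both arrays. In the female RNA labelled cDKO the 12 liver markers summed to 305830 against 53987 in its control, and all 12 were higher in it. On the male array 10 were lower in the RNA labelled cDKO and 2 higher. The brightest were Alb with a log2 ratio of -0.78 for male and 2.68 for female RNA, Ahsg with -0.54 and 2.71, and Ttr with 0.23 and 0.80. Of these 12 markers 1, Hpx, was called higher over both arrays and 0 lower (9 and 0 at an unadjusted p under 0.05 by limma), against 6 higher under median centring, 5 with the filter on both channels, 2 with the mean of probes and 9 with an intensity trend. That call was lost, with 0 higher, from the processed signals, with offset 0, without a filter and with robust eBayes. Their part in these values was not tested. For Gamt, known from liver, the log2 ratio was -0.071 in male and -0.11 in female RNA.

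Of 7 genes on the list of relatives of the transporter and the exporter Slc16a12, 4 were measured. Among these Slc6a6, the taurine transporter, was called higher at 0.64 ± 0.036 (SD, n = 2; limma adjusted p = 0.0342), and 0 were lower (0 at an unadjusted p under 0.05 by limma). That call was lost with the processed signals (adjusted p = 0.247), with offset 0 (0.0662) and under median centring (0.543). Slc6a11 and Slc6a12 were among those that did not pass the filter on dim probes. Kidney tubule markers, examined because Gatm is known from that tissue, had 7 of 10 measured genes higher and 0 lower (8 and 0 at an unadjusted p under 0.05 by limma), with sums of 20905 to 23487 in the cDKO RNAs and of 10035 to 11721 in controls. Among the brightest, Pax8 was at 2.03 for male and 1.09 for female RNA and Cdh16 at 3.52 and 1.37. Fbp1, which did not pass, was at 0.54 ± 0.62 (SD, n = 2). Their part in the value of Gatm was not tested, and Slc12a1, Slc12a3, Slc22a8 and Umod did not pass the filter. With the processed signals 0 of the 10 were called higher, with robust eBayes 3, and under median centring 4.

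Marker lists of other cell types of the ureter differed in how many genes passed. Urothelium markers had 0 of 14 called (0 lower and 4 higher at an unadjusted p under 0.05 by limma) and a median of 0.18, with sums of 1071598 to 1215102 in controls and 1340492 to 1351047 in cDKO RNAs. The uroplakins Upk3a and Upk1a and the keratin Krt18 were at 0.16, 0.15 and 0.34. Neuron and glia markers had 0 of 9 measured genes called (1 lower and 1 higher at an unadjusted p under 0.05 by limma), a median of 0.019, and sums of 27950 to 30316 in controls against 26776 to 30411. Red blood cell markers had 1 of 9 called higher (6 at an unadjusted p under 0.05 by limma), the membrane protein Slc4a1 at 0.62, named after its value was seen, with sums of 190820 to 251290 in controls and 327057 to 333575 in cDKO RNAs. Of these, 0 were called from the processed signals, with offset 0, under median centring and without a filter, and 2 with the filter on both channels, the mean of probes, an intensity trend or robust eBayes. The ureteric mesenchyme list had 6 of 10 higher, with sums of 293764 to 355672 in controls and 552778 to 561320 in the RNA labelled cDKO. Its brightest genes were Bmp4 at 0.68, Tcf21 at 0.42 (not past the test) and Col1a1 at 1.87 for male and 0.67 for female RNA. The genes altered in the cDKO embryos were among the 6 called: the floxed Tbx2 and Tbx3, and Tbx18, whose locus holds Cre. Tbx18 was at 0.81 (limma adjusted p = 0.00779), although a cDKO embryo has 1 Tbx18 allele fewer. The 6 calls fell to 0 from the processed signals, 1 under median centring and 2 with offset 0.

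By Euclidean distance between the ratios of both arrays, the genes most like Ckm were Myo18b, a muscle myosin, at -3.86 (distance 0.36 log2 units), Pcp4, a calmodulin regulator, at -4.04 (0.38) and Rims1, a presynaptic protein, at -3.48 (0.51). Those nearest to Ckb were Mylk, the myosin light chain kinase of smooth muscle, at -1.92 (0.063), Cpxm2 at -1.86 (0.075) and Igsf1 at -1.84 (0.081). With the mean of all probes of a gene, Myo18b was at -2.12, Rims1 at -1.80 and Igsf1 at -1.18, so their likeness holds for the brightest probe. Mylk and Pcp4 are also on the smooth muscle list. The likeness rests on 2 ratios per gene. It was measured among genes with a symbol, leaving out clone names.

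The promoters of the pair that fell are printed here because these members moved together. They run from 250 bases before to 50 bases after the annotated start (RefSeq, GRCm38.p6), 5′ to 3′ in the sense of the gene, with matches to any of 6 searched motifs in capitals.
Ckm promoter, chr7:19410844-19411143, plus strand: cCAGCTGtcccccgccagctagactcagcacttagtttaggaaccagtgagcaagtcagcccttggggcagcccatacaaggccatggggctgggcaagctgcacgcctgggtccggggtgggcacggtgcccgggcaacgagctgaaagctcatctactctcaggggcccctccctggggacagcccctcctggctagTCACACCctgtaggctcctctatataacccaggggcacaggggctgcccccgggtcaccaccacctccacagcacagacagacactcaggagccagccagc
Ckb promoter, chr12:111672289-111672588, minus strand: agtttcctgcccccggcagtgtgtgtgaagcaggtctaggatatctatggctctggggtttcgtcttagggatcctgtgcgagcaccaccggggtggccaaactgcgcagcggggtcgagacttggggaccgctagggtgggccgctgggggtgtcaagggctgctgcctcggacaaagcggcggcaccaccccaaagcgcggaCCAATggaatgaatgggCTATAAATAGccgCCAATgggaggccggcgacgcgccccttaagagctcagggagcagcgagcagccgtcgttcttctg
Both strands were searched. The letters of the E-box were CANNTG, and those of the T-box half-site, to which factors such as Tbx2 and Tbx3 are known to bind, were GGTGTGA. The TATA box was searched as TATAAA. For the CCAAT box the name gives the letters, and the CArG box and the MEF2 site were searched by their usual consensus. The Ckm window held 1 T-box half-site, read on the opposite strand and starting 51 bases before the start site, and 1 E-box at 249 bases before it. The half-site is held by 3.98% of 32851 windows of the same length, and the E-box by 72.3%. The Ckb window held a TATA box 28 bases before the start, CCAAT boxes at 46 and 16 bases before it, and a MEF2 site at 29 that overlaps the TATA box. Shares over all windows were 13.6% for the TATA box, 37.4% for the CCAAT box and 3.19% for the MEF2 site. Among 7 windows of the 6 members matched in the table (Slc6a8 was not), the half-site letters occurred in the Ckm window and the MEF2 letters in the Ckb window alone, and the CArG letters, held by 1.63% of all windows, in none. These are letter matches and not binding sites.

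**Figure D4:**
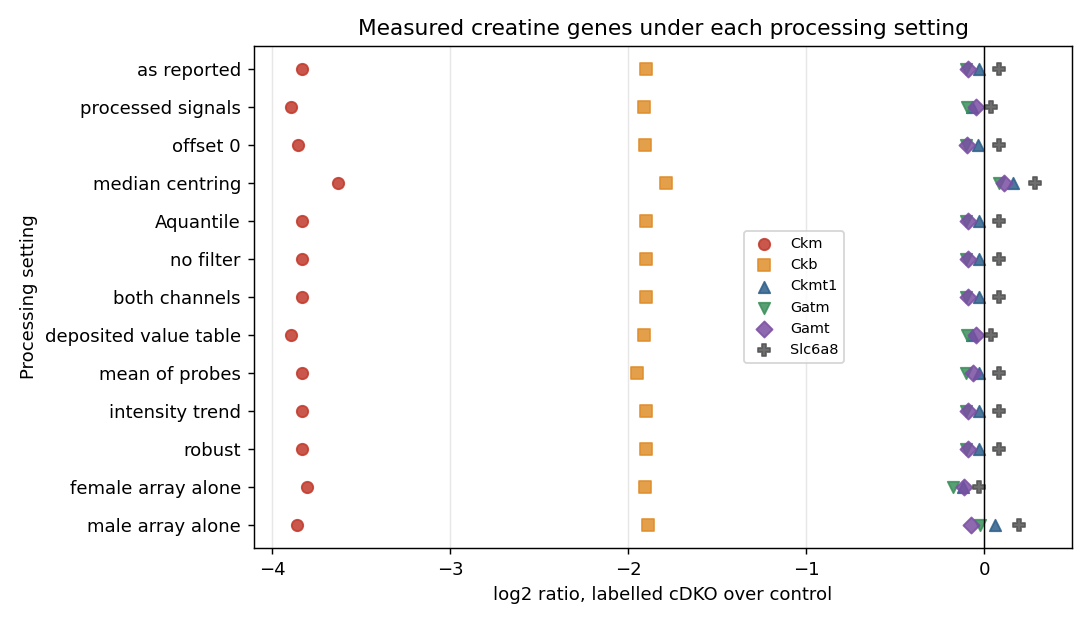
Log2 ratio of labelled cDKO over control for the 6 measured creatine genes under each processing setting, with 1 symbol shape per gene. Ckm stays between -3.89 and -3.63 and Ckb between -1.95 and -1.79, while the other 4 genes lie between -0.18 and 0.29.

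The sizes of both falls differed little between settings, though few of the settings could change them. Over 11 settings with a test the log2 ratio ran from -3.89 to -3.63 for Ckm and from -1.95 to -1.79 for Ckb. Both were called in 10 of them. The spread between the arrays did differ by setting. Under median centring the SD was 0.330 for Ckm and 0.710 for Ckb, beside 0.040 and 0.013 with loess. Aquantile, no filter, the filter on both channels, the intensity trend and robust eBayes left the ratios at -3.83 and -1.90. The mean of probes could not move Ckm, which has no other probe. The deposited value table repeated the ratios of the processed signals. In the authors' deposited value table, fitted with limma in the same way, the ratios were -3.89 and -1.91 with adjusted p of 0.115 and 0.146, and no gene was called in that setting.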

How the data were processed

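Total RNA of 4 samples on 2 arrays was measured. Per the file headers, Agilent Feature Extraction 10.7.3.1 wrote, per channel, the mean intensity of each spot, the median intensity of its local background, a processed signal intensity (background-subtracted and dye-normalized), a log10 ratio of red over green, and 0 or 1 flags. Values in the table the authors deposited are a score, which equalled the signed fold of the processed signals (labelled cDKO against control) once these were raised to a floor of 26.9 (replicate 1) or 20.4 (replicate 2), within 0.01 log2 for 100% of 44397 values. Its scale and direction are not stated in the labels and were found by that match. The median of both columns was 1.

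In limma 3.58.1 (R 4.3.3), background was removed from the mean intensities by normexp with offset 50, followed by a loess fit in each array that gave control and outlier spots weight 0. Spots of a probe were averaged. Probes well above background in one genotype on both arrays were tested (29274 probes), and a gene is its brightest probe. Symbols came from RefSeq accessions (GRCm38.p6) for 26412 of 39429 probes and from the files otherwise. The 2 log2 ratios, turned to labelled cDKO over control, were tested against 0 (lmFit, eBayes, two-sided, Benjamini-Hochberg over all probes, threshold 0.05), with 1 residual and 13.9 prior degrees of freedom, so the intervals draw largely on the variance shared across probes. The fit was tested on simulated data.

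The members and lists were chosen with earlier results of these data known. Named genes are all members, up to 3 called genes of each pathway list by adjusted p (or the largest change), the brightest of each marker list, and the 3 genes nearest to each called member. Alternatives were the processed signals, offset 0, median centring, Aquantile, other filters, the deposited table, the mean of probes, other variance priors, a fixed fold and each array alone. Some results for single genes of the lists are not reported here. Both arrays shared 1 slide and scan, so slide could not be a block.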

Additional observations from a re-analysis of the deposited data

Results flagged for a closer look

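Creatine genes whose arrays went in opposite directions were listed, without a test of the difference. The log2 ratio of Ckmt1 was 0.059 in male and -0.12 in female RNA. That of Slc6a8 was 0.20 in male and -0.026 in female RNA. Sex, dye orientation and replicate cannot be told apart here.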

How the results depend on the processing

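Ckm and Ckb kept their direction in every setting, and their call in all tested settings but the deposited value table, where 0 creatine genes and 0 genes in all were called in either direction by limma (2434 genes at an unadjusted p under 0.05). The cause was not tested. Under median centring, Ckmt1, Gatm and Gamt turned to 0.165, 0.0856 and 0.113 log2, and the cause was not tested; they passed the test in no setting. Over all genes, 531 were called lower and 511 higher, against 209 and 134 from processed signals, 157 and 163 after median centring, and 170 and 96 by a fixed 2-fold rule on both arrays. An intensity trend gave 936 higher. That 2-fold rule gave 280 lower and 195 higher with the processed signals and 150 higher in the deposited value table. Each array alone gave 274 to 322 genes at least 2-fold lower and 278 to 299 higher. The pairing of genotypes on an array is part of each ratio. Signal limits Ckmt2, which had a ratio only without the filter (-0.016, with -0.29 and 0.26 on the male and female arrays).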
